A study of Mus musculus with 15 samples.

Results

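The 10 genes described here encode the calcium release and uptake machinery of the sarcoplasmic reticulum: the ryanodine receptors Ryr1, Ryr2 and Ryr3, the SERCA pumps Atp2a1 and Atp2a2, the pump inhibitor Pln, the calsequestrins Casq1 and Casq2, and the junctophilins Jph1 and Jph2. They were taken by name, with earlier results of these data known, and all 10 were found among the 56980 genes of the deposited expression table. In striated muscle, the sarcoplasmic reticulum stores calcium, releases it through ryanodine receptors when the fibre is excited, and takes it back through SERCA pumps so that the fibre relaxes. Calsequestrin binds the stored calcium, junctophilin holds the reticulum against the surface membrane, and phospholamban, the product of Pln, slows the pump until it is phosphorylated. Skeletal and cardiac muscle use different genes of these families, and handling of calcium is disturbed in muscle without dystrophin.

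All 10 are protein-coding genes, placed here on GRCm39 with GENCODE M39. The release channels are on different chromosomes: Ryr1 (ENSMUSG00000030592) lies at chr7:28702769-28824604, Ryr2 (ENSMUSG00000021313) lies at chr13:11567988-12121870 and Ryr3 (ENSMUSG00000057378) lies at chr2:112461699-113047441. Of the pumps, Atp2a1 (ENSMUSG00000030730) lies at chr7:126045013-126063423 and Atp2a2 (ENSMUSG00000029467) lies at chr5:122591575-122640903. The inhibitor Pln (ENSMUSG00000038583) lies at chr10:53199622-53223512. Of the stores, Casq1 (ENSMUSG00000007122) lies at chr1:172037459-172049328 and Casq2 (ENSMUSG00000027861) lies at chr3:101993234-102056307. Of the junction proteins, Jph1 (ENSMUSG00000042686) lies at chr1:17012318-17168113 and Jph2 (ENSMUSG00000017817) lies at chr2:163178162-163239920.

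RNA came from DBA/2J-mdx mice, which carry the mdx mutation on a DBA/2J background and so lack dystrophin, and every group carried it, so no comparison with healthy muscle was made. Tibialis anterior (TA) muscle, a fast limb muscle, was taken at 5 months of age after 2 months of treatment begun at 3 months, and heart at 16 months after 4 months of treatment begun at 12 months. Mice received vehicle or D+Q, dasatinib given together with quercetin to clear senescent cells, 2 times per week. There were 4 D+Q-treated and 4 vehicle-treated TA muscles, and 3 D+Q-treated and 4 vehicle-treated hearts, each from 1 mouse. Tissue, age and length of treatment cannot be told apart, because each tissue was collected at a single age.

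Values are TPM, a transcript abundance that is corrected for transcript length and scaled to 1000000 per library, so levels of different genes can be set side by side. TPM keeps no depth, so the reads behind a value are unknown. In whole tissue, fewer cells of a type and less RNA per cell cannot be told apart. The labelled tissue held in every library: the summed TPM of 6 fast-fibre genes was 26696 to 32434 in TA and 1.39 to 64.3 in heart, and that of 5 cardiomyocyte genes 51.7 to 116.0 in TA and 14270 to 18573 in heart. All D+Q-treated TA muscles were from males, while the other groups held both sexes by label. The heart of D+Q replicate 3, labelled male, had 47.2 TPM of Xist and 0.0159 TPM of the Y-linked gene Ddx3y, which goes against its label. The heart of D+Q replicate 2 stood apart in fast-fibre genes.

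The pumps and the calsequestrins each split into a TA gene and a heart gene, so the 250 bases before the start of the canonical transcript of these 4 genes are shown, read 5′ to 3′ on the gene's strand from GRCm39 with GENCODE M39 starts. The windows of Atp2a1, Atp2a2 and Casq1 lie inside the gene spans given above, and that of Casq2 lies before its gene. Capitals mark an E-box (CANNTG), a TATA box (TATAAA) or a GC box (GGGCGG), each searched on both strands.
Atp2a1, chr7:126062945-126063194, minus strand: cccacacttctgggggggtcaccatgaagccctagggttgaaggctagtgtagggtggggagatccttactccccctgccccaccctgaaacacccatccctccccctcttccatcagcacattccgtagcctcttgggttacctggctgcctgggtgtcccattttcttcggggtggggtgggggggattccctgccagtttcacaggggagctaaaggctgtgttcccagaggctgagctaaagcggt
Atp2a2, chr5:122640413-122640662, minus strand: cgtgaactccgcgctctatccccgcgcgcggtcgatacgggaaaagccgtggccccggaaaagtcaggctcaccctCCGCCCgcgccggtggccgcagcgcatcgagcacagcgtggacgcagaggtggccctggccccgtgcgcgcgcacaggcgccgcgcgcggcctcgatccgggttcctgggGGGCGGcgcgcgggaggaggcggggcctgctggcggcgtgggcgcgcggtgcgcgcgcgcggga
Casq1, chr1:172047753-172048002, minus strand: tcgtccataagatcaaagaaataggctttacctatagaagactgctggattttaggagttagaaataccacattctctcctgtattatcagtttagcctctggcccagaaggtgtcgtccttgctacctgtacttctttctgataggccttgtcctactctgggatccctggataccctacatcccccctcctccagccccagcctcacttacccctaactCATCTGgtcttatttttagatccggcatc
Casq2, chr3:101992984-101993233, plus strand: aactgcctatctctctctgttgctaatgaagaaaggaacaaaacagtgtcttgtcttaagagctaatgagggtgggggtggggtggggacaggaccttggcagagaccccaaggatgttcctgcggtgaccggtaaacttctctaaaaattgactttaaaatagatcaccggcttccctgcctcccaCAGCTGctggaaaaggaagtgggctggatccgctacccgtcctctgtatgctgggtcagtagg
Of 21770 protein-coding promoters of this length, 64.8% held an E-box, 11.9% a TATA box and 36.3% a GC box. The window of Atp2a2 held 2 GC boxes and was 78.0% G and C, against a median of 53.2% over all promoters. Each calsequestrin window held 1 E-box, and the window of Atp2a1, which was 60.0% G and C, held none of these 3 motifs. None of the 4 windows held a TATA box. Among the ryanodine receptors and junctophilins, 2 E-boxes each stood before Ryr2, Ryr3 and Jph1, and none before Ryr1 or Jph2. A match is a description of the letters and not of binding.

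The first comparison asked which paralogue each tissue uses, in vehicle-treated mice. All 10 members passed the filter of 0.5 TPM in at least 3 mice, and all 10 differed between heart and TA (limma on log2(TPM + 0.5), called where adjusted p was under 0.05 and the log2 difference beyond 0.5 either way). The 5 members higher in heart were Ryr2, Ryr3, Atp2a2, Pln and Casq2, where 14.8% of all 16893 genes tested were called higher, and the 5 members lower in heart were Ryr1, Atp2a1, Casq1, Jph1 and Jph2, where 24.1% were called lower. The median log2 difference of all genes was -0.16. Ryr1 met the filter through TA alone, and Ryr2 and Ryr3 through heart alone, the tissues where they were high. The count of 10 called is in part set by that filter.

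**Figure D1:**
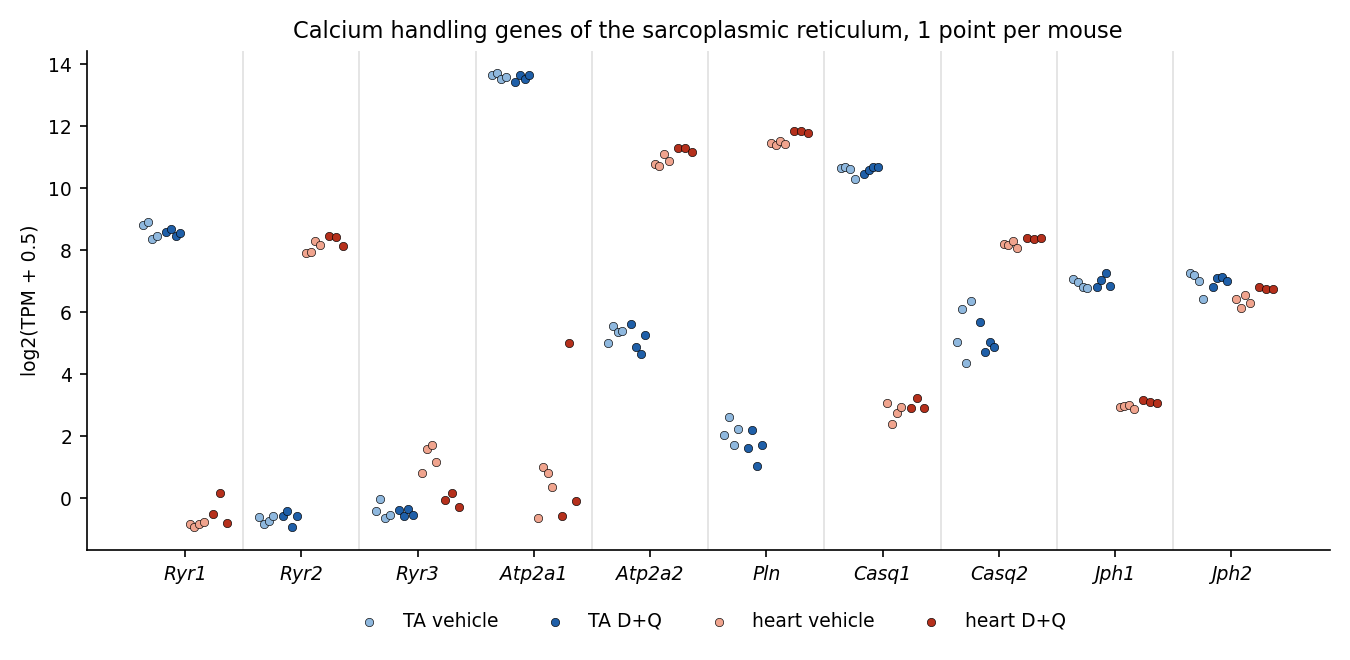
Level of each gene in each mouse, as log2(TPM + 0.5) on the vertical axis, with 1 point per mouse coloured by group. Ryr1, Atp2a1, Casq1 and Jph1 sit high in TA and low in heart, Ryr2, Atp2a2, Pln and Casq2 the other way round, and the Jph2 points of the vehicle groups overlap.

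Among the release channels, Ryr1, the receptor that dihydropyridine receptors open in skeletal muscle, had 453.3, 477.1, 330.6 and 348.8 TPM in the 4 vehicle-treated TA muscles. The hearts of vehicle-treated mice had 0.0598, 0.0299, 0.0680 and 0.0948 TPM of Ryr1. Heart was lower by 9.47 on the log2 scale, written as -9.47 ± 0.15 (SE, n = 4 and 4, limma adjusted p = 1.23e-10). Ryr2, the cardiac receptor, mirrored it. Its level was 239.7, 246.6, 311.0 and 284.0 TPM in the hearts of vehicle replicates 1 to 4 and at most 0.175 TPM in their TA counterparts, a log2 difference of 8.76 ± 0.13 (SE). Within the family, Ryr1 made up 99.9% of ryanodine receptor TPM in vehicle-treated TA (SD 0.0179, n = 4) and Ryr2 99.2% in vehicle-treated heart (SD 0.221, n = 4). Ryr3, a receptor also found outside striated muscle, was the main receptor of neither tissue. It ran from 0.146 to 0.482 TPM in vehicle-treated TA and from 1.26 to 2.79 TPM in vehicle-treated heart, and the difference was 1.72 ± 0.19 on the log2 scale (SE, limma adjusted p = 5.91e-05). Summed over the family, receptor TPM was 402.8 ± 73.6 in TA and 272.5 ± 33.8 in heart (SD, n = 4 each).

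The largest of the 10 differences was that of a pump. Atp2a1, which encodes SERCA1 of fast fibres, was the most abundant member in TA with 12872, 13285, 11689 and 12334 TPM under vehicle. In the vehicle-treated hearts it had 0.141, 1.51, 1.26 and 0.785 TPM, a log2 difference of -13.23 ± 0.25 (SE). Atp2a2, which encodes SERCA2 of heart and slow fibres, had 1749, 1696, 2174 and 1882 TPM in those hearts and 31.7 to 46.5 TPM in vehicle-treated TA, a log2 difference of 5.54 ± 0.13 (SE). The SERCA total of TA, 12591 ± 692.7 TPM, was above that of heart, 1886 ± 212.9 TPM, in every mouse (SD, n = 4 each). Pln was the most abundant member in heart, with 2823, 2696, 2923 and 2751 TPM under vehicle, and had 2.79 to 5.64 TPM in vehicle-treated TA. The log2 difference of Pln was 9.30 ± 0.15 (SE).

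The stores and the junction were less exclusive. Casq1, the skeletal calsequestrin, had 1269 to 1659 TPM in vehicle-treated TA and 4.81 to 8.02 TPM in vehicle-treated heart (-7.77 ± 0.13, SE). Casq2, the cardiac calsequestrin, was 266.2 to 315.9 TPM in heart but still 32.6, 67.9, 19.9 and 81.8 TPM in TA, and its log2 difference was 2.72 ± 0.28 (SE). Jph1, the skeletal junctophilin, had 109.9 to 134.0 TPM in vehicle-treated TA and 6.88 to 7.52 TPM in heart (-3.96 ± 0.11, SE). Jph2, the junctophilin of both muscle types, had 151.7, 147.4, 126.8 and 86.4 TPM in TA and 85.2, 70.0, 94.7 and 79.1 TPM in heart. Its groups overlapped, its difference was -0.61 ± 0.18 (SE, limma adjusted p = 0.0195), and the call was lost when values were rescaled by median-of-ratios factors, which gave -0.43. It was also lost without vehicle TA replicate 1 or 2 or vehicle heart replicate 2 or 4. The share of Jph1 in the TPM of both junctophilins was 48.9% ± 4.74 in TA and 8.16% ± 0.916 in heart (SD, n = 4 each).

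Ordered by mean TPM, vehicle-treated TA ran Atp2a1, Casq1, Ryr1, Jph2, Jph1, Casq2, Atp2a2, Pln, Ryr3 and Ryr2. The ranges of Jph2 and Jph1, of Casq2 and Atp2a2, and of Ryr3 and Ryr2 overlapped. Vehicle-treated heart ran Pln, Atp2a2, Casq2, Ryr2, Jph2, Jph1, Casq1, Ryr3, Atp2a1 and Ryr1, and there the ranges of Casq2 and Ryr2, of Jph1 and Casq1, and of Ryr3 and Atp2a1 overlapped. Jph2 held the middle of both orders.

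In D+Q-treated mice, every TA muscle read as male and every heart as female by Xist and Y-linked genes. Sex could therefore not be told apart from tissue in this fit, which held no covariate. Of the members, 9 were tested and 8 differed between heart and TA. The 4 higher in heart were Ryr2, Atp2a2, Pln and Casq2, against 15.6% of all genes, and the 4 lower were Ryr1, Atp2a1, Casq1 and Jph1, against 21.2% of all genes. Ryr3 was below the filter in this pair of groups, at 0.174 to 0.281 TPM in TA and 0.328 to 0.618 TPM in heart. Ryr1 and Atp2a1 met the filter through TA alone, and Ryr2 through heart alone. Jph2 had a log2 difference of -0.24 ± 0.09 (SE, limma adjusted p = 0.0720) and was not called. Atp2a1 had the widest error of the 8, -12.11 ± 1.17 (SE), and 1 heart stood far from the other 2.

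That heart was D+Q replicate 2, in which Atp2a1 had 31.5 TPM, against 0.178 and 0.434 TPM in the other D+Q-treated hearts and at most 1.51 TPM in the vehicle-treated hearts. In the same library Tnnt3, the fast skeletal troponin T, had 21.5 TPM, Mylpf, the fast regulatory light chain, 13.2 TPM, and Myh4, a fast myosin heavy chain, 10.2 TPM. These 3 genes were at most 1.77 TPM in the other 6 hearts. Ryr1, at 0.633 TPM, was also highest in that heart. The part of skeletal muscle tissue in these values was not tested.

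Per-mouse ratios put the same paralogues on a single scale, as the log2 of (TPM + 0.5) of 1 gene over that of the other. Between vehicle-treated heart and TA the ratio of Ryr1 to Ryr2 differed by -18.22, Atp2a1 to Atp2a2 by -18.76, Casq1 to Casq2 by -10.49 and Jph1 to Jph2 by -3.35. Ryr1 in heart and Ryr2 in TA were below the added 0.5 TPM, so the size of their ratio depends on that constant. The Ryr1 to Ryr2 difference ran from -21.52 to -16.46 over the alternatives run. The ratio of Pln to Atp2a2 was 0.58 ± 0.12 in vehicle-treated heart and -3.18 ± 0.33 in vehicle-treated TA (SD, n = 4 each), and Pln TPM was above Atp2a2 TPM in every heart and in no TA muscle. For each of the 5 ratios the tissues did not overlap, under vehicle or under D+Q. Each of these 10 tests gave p = 0.0286 (exact permutation test over mice, two-sided), the smallest p that 4 against 4 or 3 against 4 mice allow, and 0.0571 after Benjamini-Hochberg adjustment over the 20 ratio tests.

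**Figure D2:**
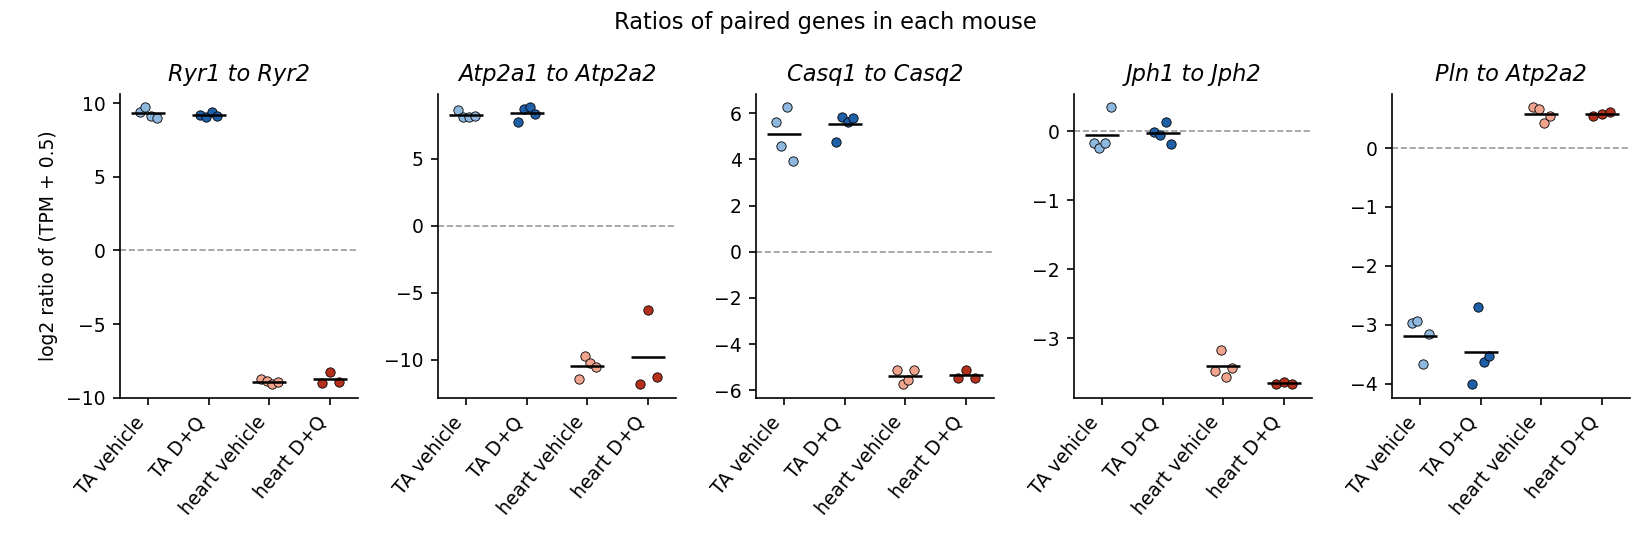
Log2 ratio of (TPM + 0.5) of the named gene pairs in each mouse, with bars at the group means and a dashed line at equal levels. Each panel separates TA from heart, the junctophilin panel by the smallest distance, and the heart of D+Q replicate 2 stands above the other hearts in the panel of Atp2a1 to Atp2a2.

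A list of 45 further calcium handling genes gave the setting. Between vehicle-treated heart and TA, 43 were tested, 10 were called higher in heart and 27 lower, against 14.8% and 24.1% of all genes. The 4 with the largest log2 differences upwards were Strit1, which encodes the pump activator DWORF, at 7.77 ± 0.34, Cacna1c, the cardiac L-type channel, at 4.98 ± 0.16, its subunit Cacnb2 at 4.82 ± 0.15, and the sodium-calcium exchanger Slc8a1 at 3.86 ± 0.12 (SE). The 4 downwards were the calcium buffer parvalbumin, Pvalb, at -12.90 ± 0.20, the skeletal channel subunit Cacng1 at -8.33 ± 0.15, the junction protein Jsrp1 at -7.51 ± 0.14 and Sypl2, mitsugumin 29, at -6.76 ± 0.16 (SE). Strit1 met the filter through heart alone, and Pvalb, Cacng1 and Jsrp1 through TA alone. Of the 15 genes for the junction and excitation-contraction coupling, 13 were tested, 11 were called lower in heart and 2 higher, beside the same 24.1% and 14.8%. Besides Pln, the pump has other small regulators: Mrln, myoregulin of skeletal muscle, had 31.0 to 72.8 TPM in vehicle-treated TA and 0.761 to 1.54 TPM in heart, while Strit1 was listed at 0 in 2 vehicle-treated TA muscles and had 100.8 to 198.4 TPM in heart. Atp2a3, the SERCA3 of non-muscle cells, was 3.90 to 7.46 TPM in vehicle-treated TA and 7.52 to 13.2 TPM in heart.

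The second question was whether D+Q moved these genes within TA. It did not detectably: 8 members were tested, with Ryr2 and Ryr3 below the filter, and 0 were called higher or lower, as was 0% of all 16298 genes tested in each direction. At an unadjusted p under 0.05, limma counted 0 of the 8 members and 488 of all genes. The smallest limma adjusted p of any gene was 0.999, so this fit singled out no gene, member or not. The paper, with DESeq2 on counts, called genes in both directions in D+Q-treated TA. That test cannot be run on TPM, so the lack of calls here is not evidence that these genes stayed the same. The log2 fold changes ran from -0.49 ± 0.29 for Pln to 0.14 ± 0.12 for Jph1 (SE), all with an adjusted p of 0.999, and no member separated the 4 D+Q-treated from the 4 vehicle-treated mice. Each of the 41 other calcium genes tested in TA was likewise not called.

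Values of single mice show how wide that comparison was for some members and how narrow for others. Atp2a1 had 10903, 12884, 11757 and 12791 TPM under D+Q, inside or just below the vehicle range, and a log2 fold change of -0.03 ± 0.13 (SE). Ryr1 had 386.3, 412.5, 355.2 and 372.4 TPM under D+Q, within the vehicle range, and a change of -0.05 ± 0.15 (SE). Atp2a1 differed little between mice, while Ryr1 ran from 330.6 to 477.1 TPM under vehicle. Of the cardiac genes, Casq2 and Pln spread more widely. Casq2 had 51.4, 26.1, 32.1 and 29.0 TPM under D+Q against 32.6, 67.9, 19.9 and 81.8 TPM under vehicle, a change of -0.33 ± 0.42 (SE). Pln had 2.58, 4.08, 1.56 and 2.82 TPM under D+Q against 3.61, 5.64, 2.79 and 4.17 TPM under vehicle. Atp2a2 had 49.2, 29.2, 24.9 and 38.0 TPM against 31.7, 46.5, 41.1 and 41.3 TPM, a change of -0.34 ± 0.16 (SE), with an error near that of Ryr1.

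The vehicle muscles with the most Casq2 and Pln were also high in the sum of slow-fibre genes. Atp2a2 hardly set them apart, with 41.1 TPM in vehicle replicate 3 and 41.3 TPM in vehicle replicate 4. Replicates 2 and 4, both labelled female, had 36.7 and 41.6 TPM of the slow troponin T gene Tnnt1, against 8.69 and 6.65 TPM in replicates 1 and 3. Myh7, the slow myosin heavy chain, had 24.5 TPM in replicate 2 and at most 5.02 TPM in the other 7 muscles, with 2.05 TPM in replicate 4. Myl2 was highest in vehicle replicates 2 and 4. Tnni1 and Tnnc1 reached 17.7 and 26.8 TPM in D+Q replicate 1, above the 15.4 TPM of Tnni1 in vehicle replicate 2 and the 25.0 TPM of Tnnc1 in vehicle replicate 4. The sum of the 5 slow-fibre genes was 150.1 and 117.6 TPM in vehicle replicates 2 and 4 and 25.4 to 80.2 TPM in the rest, none of the 5 genes being at 0 throughout. With labelled sex in place of the surrogate variable, the log2 fold change of Casq2 turned to 0.38, with an adjusted p of 1.00 from limma, so no direction can be given for it. The part of fibre type and of sex in these values was not tested.

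**Figure D3:**
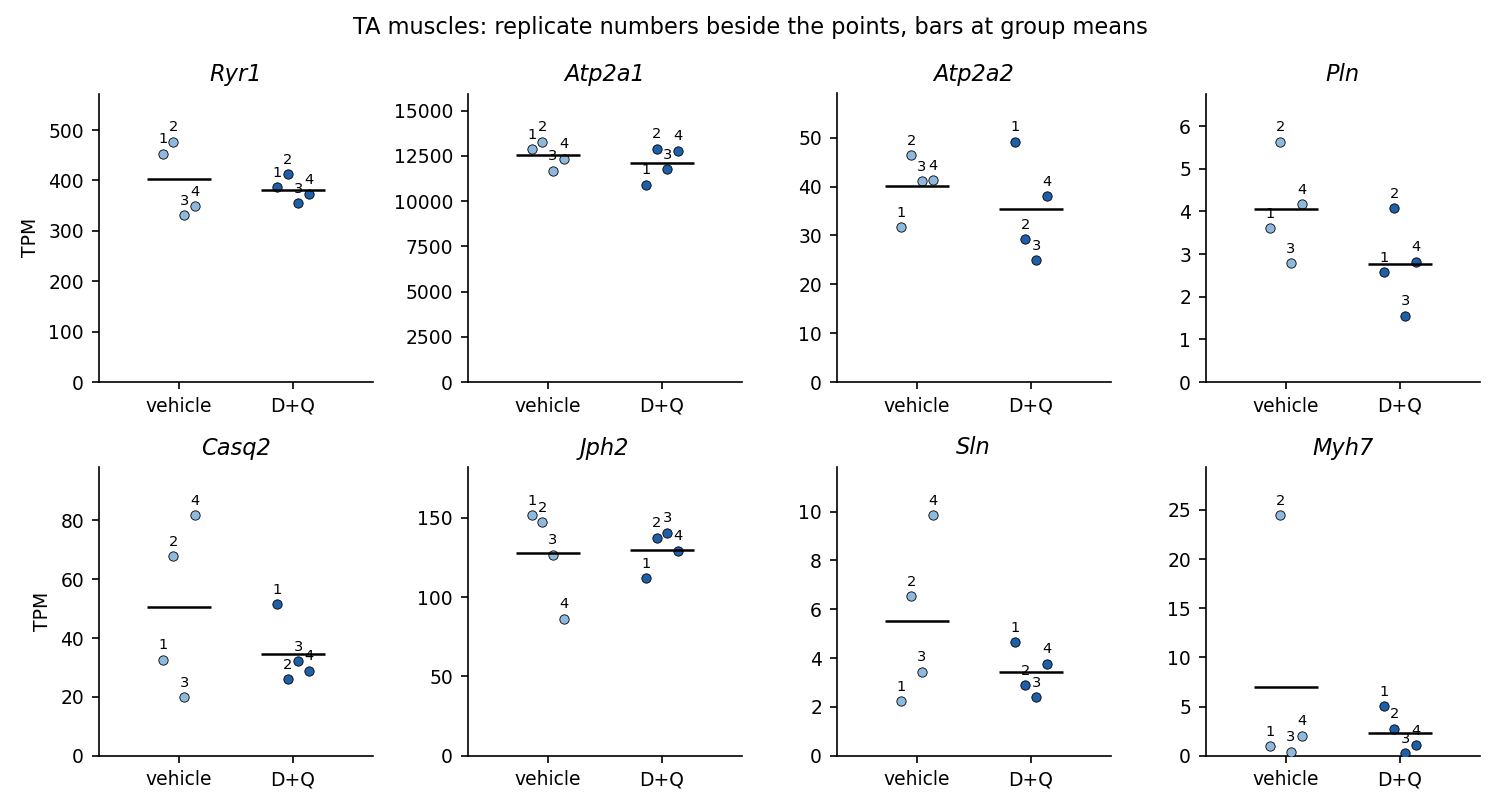
TPM in TA muscle of 6 members, the pump inhibitor Sln and the slow myosin gene Myh7, on linear axes from 0, with the replicate number beside each mouse and bars at group means. Atp2a1 differs little between mice, while Casq2, Sln and Myh7 are high in vehicle replicates 2 or 4.

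The third question was the same in heart, and there 1 member passed the test. Of 9 members tested, with Ryr1 below the filter, 0 were called higher, where 0.105% of all 16132 genes were, and 1 was called lower, where 0.211% were. The gene called was Ryr3. The other 8 had positive fold changes, and 5 of them, Atp2a2, Pln, Casq2, Jph1 and Jph2, were higher in each D+Q-treated heart than in each vehicle-treated heart, against 9.63% of all genes. Ryr3 was lower in each of them, against 5.57% of all genes. The median log2 fold change of the 9 members was 0.26, and that of all genes -0.0025. At an unadjusted p under 0.05, limma counted 5 of the 9 members and 2846 of all genes (17.6%). In heart too, the paper called genes in both directions with DESeq2 on counts. That test cannot be run on TPM, so the lack of a call here is not evidence that a member stayed the same.

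**Figure D4:**
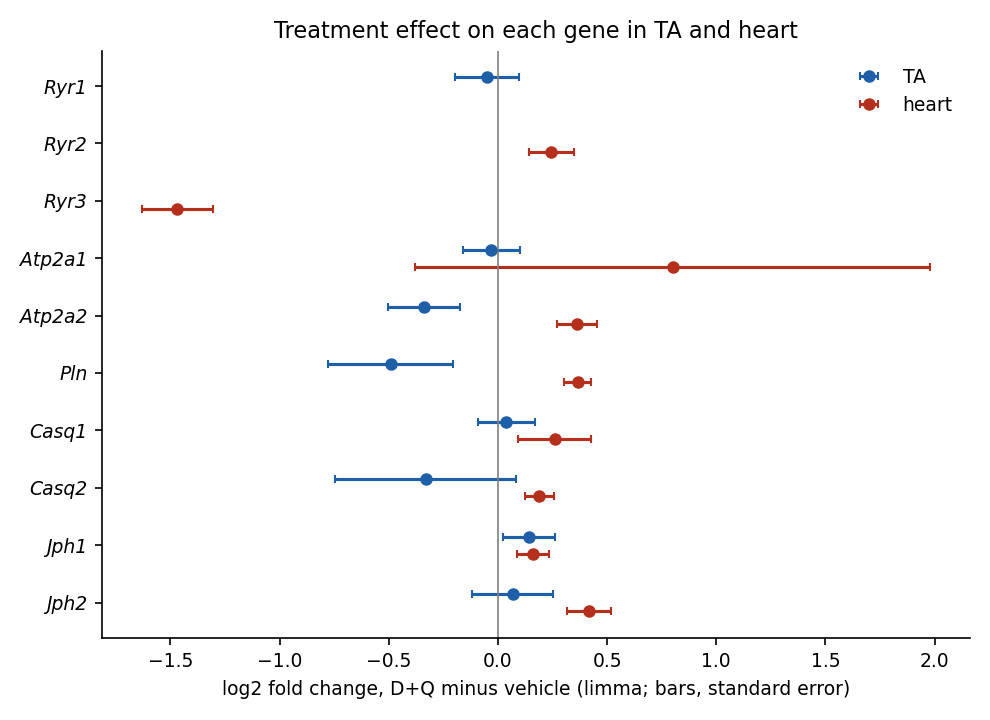
Log2 fold change from vehicle to D+Q of each tested gene, with bars for the standard error, in TA and in heart. Ryr3 in heart lies at -1.47, the other heart estimates lie above 0, Atp2a1 in heart with the widest bar, and the TA estimates lie between -0.49 and 0.14.

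Ryr3 had 1.26, 2.51, 2.79 and 1.75 TPM in the vehicle-treated hearts and 0.458, 0.618 and 0.328 TPM in the D+Q-treated hearts. The lowest vehicle value was above the highest D+Q value, and mean TPM was 4.44-fold higher under vehicle. The log2 fold change was -1.47 ± 0.16 (SE, n = 3 and 4, limma adjusted p = 0.0284). Ryr3 met the filter of 0.5 TPM through the vehicle-treated hearts, the group where it was high. Among the D+Q-treated hearts only replicate 2 reached that level, and with no filter the call was lost (limma adjusted p = 0.121). The call was close to the threshold. It was lost without vehicle replicate 2 or 4 and without any of the 3 D+Q-treated hearts, with an adjusted p from 0.0857 to 0.142 in those 5 fits. The call held without vehicle replicate 1 (limma adjusted p = 0.0465) or 3 (limma adjusted p = 0.0447). Without D+Q replicate 3, whose sex label is in doubt, the change was -1.61 (limma adjusted p = 0.142), and without D+Q replicate 2 it was -1.49 (limma adjusted p = 0.0967). With sex read from Xist and Y-linked genes in place of the label, the change was -1.71 and the call held (limma adjusted p = 0.0382).

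Genes of the atria were lower alongside Ryr3. For Myl7, the atrial light chain, vehicle replicates 1 to 4 had 94.1, 730.1, 541.0 and 282.5 TPM, and the D+Q-treated hearts had 3.99, 4.54 and 3.46 TPM. All 6 atrial genes together summed to 872.2 to 4255 TPM under vehicle and 395.9 to 442.7 TPM under D+Q, and none was at 0 in either group. Of the 6, Myl7, Myl4, Nppa and Dkk3 did not overlap between the groups, while Bmp10 and Tbx5 did. Vehicle replicates 2 and 3, the highest in Myl7, were also the highest in Ryr3, and replicate 1 was the lowest in both. With the mean log2 level of the atrial genes in the model in place of sex, Ryr3 had a log2 fold change of 0.21 (limma adjusted p = 0.932). The mean log2 level of the atrial genes was 4.91 to 6.70 under vehicle and 2.75 to 3.09 under D+Q, so with 7 hearts that model can hardly separate it from treatment. Other marker lists also differed without overlap: the 3 red-cell genes summed to 284.6 to 1067 TPM under vehicle and 23.7 to 106.6 TPM under D+Q, and the 4 fibroblast genes to 491.3 to 694.3 TPM and 392.1 to 461.6 TPM. The 4 ventricular genes summed to 8492 to 10548 TPM under vehicle and 11942 to 12585 TPM under D+Q. Within these lists the fibroblast gene Pdgfra and the ventricular genes Irx4 and Lrrc10 overlapped between the groups, so the sums do not speak for each gene. No gene of these lists was at 0 throughout a group. The part of atrial tissue in the Ryr3 result was not tested further, and that of the other lists was not tested.

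No gene of uptake, store or junction passed the test in heart, and Atp2a2, Pln, Casq2, Jph1 and Jph2 were the 5 whose D+Q values all lay above the vehicle values. Pln had 2823, 2696, 2923 and 2751 TPM under vehicle and 3632, 3691 and 3520 TPM under D+Q, a log2 fold change of 0.36 ± 0.06 (SE, limma adjusted p = 0.0812). Atp2a2 had 1749, 1696, 2174 and 1882 TPM under vehicle and 2499, 2485 and 2304 TPM under D+Q, a change of 0.36 ± 0.09 (SE, limma adjusted p = 0.126). The log2 ratio of Pln to Atp2a2 was 0.57 ± 0.04 under D+Q and 0.58 ± 0.12 under vehicle (SD), a difference of -0.0095 (exact permutation test, p = 0.943, adjusted p = 0.943). Jph2 had 85.2, 70.0, 94.7 and 79.1 TPM under vehicle and 112.7, 107.9 and 107.7 TPM under D+Q, a change of 0.42 ± 0.10 (SE, limma adjusted p = 0.120). Casq2 had 295.8, 284.2, 315.9 and 266.2 TPM under vehicle and 334.5, 326.2 and 336.6 TPM under D+Q (0.19 ± 0.07, SE, limma adjusted p = 0.207). Jph1 had 6.88 to 7.52 TPM under vehicle and 7.99 to 8.46 TPM under D+Q (0.16 ± 0.07, SE, limma adjusted p = 0.310).

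Ryr2, the main release channel of the heart, overlapped between the groups. It had 239.7, 246.6, 311.0 and 284.0 TPM under vehicle and 354.1, 344.8 and 281.2 TPM under D+Q, a change of 0.24 ± 0.10 (SE, limma adjusted p = 0.284). Casq1 overlapped too, at 4.81 to 8.02 TPM under vehicle and 7.03 to 8.96 TPM under D+Q. Atp2a1 had a change of 0.80 ± 1.18 (SE), which became -0.72 without D+Q replicate 2. The ratio of Jph1 to Jph2 was -3.66 ± 0.02 under D+Q and -3.41 ± 0.17 under vehicle (SD), without overlap (exact permutation test, p = 0.0571, adjusted p = 0.104). For the other 4 ratios the treatment groups overlapped in heart, and all 5 overlapped in TA.

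Cardiomyocyte genes were also higher. Their mean log2 level, over Myh6, Tnnt2, Tnni3, Mybpc3 and Actc1, was 11.49 ± 0.05 under D+Q and 11.22 ± 0.04 under vehicle (SD), a difference of 0.26 with no overlap. Tnni3, cardiac troponin I, for example, had 3775 to 4106 TPM under vehicle and 4669 to 4967 TPM under D+Q. Mybpc3 alone of these genes overlapped between the groups. Set against that mean in the same heart, the difference was 0.11 for Pln, 0.12 for Atp2a2, 0.16 for Jph2, 0.01 for Ryr2, -0.07 for Casq2 and -0.09 for Jph1, and that of Ryr3 was -1.64. On this scale the groups overlapped for Atp2a2, Jph2, Casq2 and Ryr2 and did not for Pln, Jph1 and Ryr3. The part of cardiomyocyte content in the higher values was not tested.

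**Figure D5:**
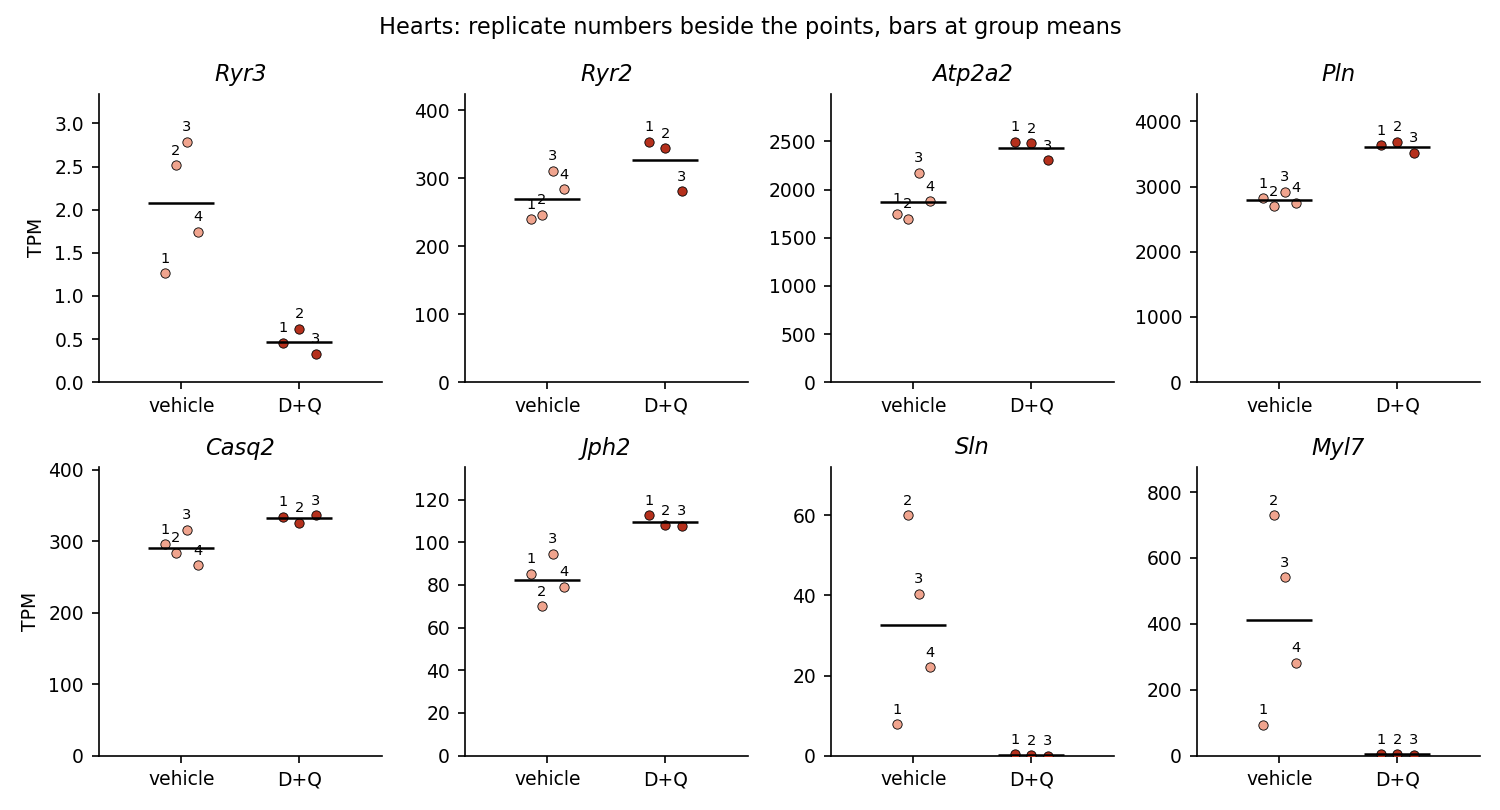
TPM in heart of 6 members, the pump inhibitor Sln and the atrial gene Myl7, on linear axes from 0, with the replicate number beside each mouse and bars at group means. Ryr3, Sln and Myl7 are lower in every D+Q-treated heart, Atp2a2, Pln, Casq2 and Jph2 are higher in every one, and Ryr2 overlaps.

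Of the 45 further calcium genes, 39 were tested in heart, 0 were called higher and 1 lower, against 0.105% and 0.211% of all genes. Without overlap, 10 were higher and 3 lower, against 9.63% and 5.57% of all genes. The gene called was Sln, which encodes sarcolipin, a pump inhibitor found in atria and some skeletal muscle. It had 7.86, 60.0, 40.5 and 22.0 TPM under vehicle and 0.416, 0.176 and 0.0408 TPM under D+Q, a log2 fold change of -5.46 ± 0.41 (SE, limma adjusted p = 0.00997). Its order over vehicle replicates 1 to 4 was that of Myl7, and with the atrial genes in the model the change was -0.70 (limma adjusted p = 0.871). The call was also lost without vehicle replicate 2 or D+Q replicate 2, and with no filter on low TPM (limma adjusted p = 0.0693). Sln met the filter through the vehicle-treated hearts alone. Strit1, the activator, had 100.8 to 198.4 TPM under vehicle and 212.7 to 271.6 TPM under D+Q (0.60 ± 0.23, SE, limma adjusted p = 0.239). Mrln had 0.761 to 1.54 TPM and 0.180 to 0.928 TPM (-0.69 ± 0.17, SE, limma adjusted p = 0.117), and Atp2a3 7.52 to 13.2 TPM and 5.67 to 9.40 TPM (-0.43 ± 0.17, SE, limma adjusted p = 0.247). Of the 10 genes listed as the release channel and its partners, 4 were higher without overlap and 1 lower, beside the same 9.63% and 5.57%, and 0 were called. The higher ones included triadin, Trdn, at 0.21 ± 0.05 and Asph, whose products include junctin, at 0.43 ± 0.09 (SE). The lower one was Itpr1, at 18.1 to 23.8 TPM under vehicle and 14.9 to 17.2 TPM under D+Q.

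The difference between the tissues in their response was tested as an interaction over all 15 mice with labelled sex. Ryr3 was the single member called, with a treatment effect lower in heart than in TA by 1.60 on the log2 scale, written as -1.60 ± 0.25 (SE, limma adjusted p = 0.0372), where 0.0628% of 17516 genes were called lower and 0.00571% higher. The call was lost in 12 of the 15 fits that left out 1 mouse, with a pseudocount of 0.1 (limma adjusted p = 0.129) and with no filter (limma adjusted p = 0.0802). In TA, Ryr3 had 0.271, 0.174, 0.281 and 0.191 TPM under D+Q and 0.260, 0.482, 0.146 and 0.195 TPM under vehicle, all below the filter of 0.5 TPM. It entered this fit through heart alone, and a change in TA could hardly be seen at that level. Its interaction therefore adds little to the heart result. Sln was called as well, at -5.67 ± 0.51 (SE, limma adjusted p = 0.000155). Its tissue order differed between the treatment groups: under vehicle it was higher in heart than in TA by 2.30 ± 0.31, and under D+Q lower, at -2.47 ± 0.26 (SE). Under vehicle the tissues overlapped, at 7.86 to 60.0 TPM in heart and 2.24 to 9.86 TPM in TA. An interaction with the atrial genes in the model was not run, so the part of atrial tissue in the Sln values was not tested here. Each of the other 9 members had an interaction with an adjusted p of 1.00 from limma.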

How the data were processed

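Bulk RNA-seq of 15 libraries was used, 8 from TA muscle and 7 from heart, each from 1 mouse. Per the labels, RNA was extracted with miRNeasy and libraries were made with the Watchmaker mRNA kit. The submitters' processing notes name Trim Galore 0.6.10, Salmon 1.10.3 and GRCm39, and the authors deposited TPM for 56980 genes by Ensembl identifier. The annotation release is not given in the sources used here. Of the identifiers, 56236 were found in GENCODE M39, which gave symbols.

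Groups came from the labels. The filter kept genes that reached 0.5 TPM in 3 or more mice of a fit, or of either tissue for the interaction. Values of log2(TPM + 0.5) were fitted with limma 3.58.1 in R 4.3.3 (lmFit, eBayes with a trend), with Benjamini-Hochberg adjustment over all genes. On this scale the change of a gene with low TPM is understated. The TA fit held 1 surrogate variable, the heart, vehicle tissue and interaction fits labelled sex, and the D+Q tissue fit no covariate. Ratios were compared with exact permutation tests. The code was tested on simulated data. Members and gene lists were chosen with earlier results of these data known. Named genes are the 10 members, Sln, Mrln, Strit1 and Atp2a3, listed calcium genes called for treatment, and the 4 called with the largest differences each way between vehicle-treated tissues. Cell markers and Trdn, Asph and Itpr1 were named beside results after their values were seen. Alternatives were other pseudocounts (0.1 and 1), filters, scaling, covariates and left-out mice, and, added after seeing the data, members set against cardiomyocyte genes. TPM gives no depth, so precision comes from the spread between mice.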

Additional observations from a re-analysis of the deposited data

Results flagged for a closer look

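The change from vehicle to D+Q differed between heart and TA for 2 calcium handling genes in limma's interaction fit over all 15 mice: Ryr3, a release channel, by -1.60 on the log2 scale, and Sln, a pump inhibitor, by -5.67. Ryr3 was below the filter in every TA muscle and entered the fit through heart alone. The mean level of the atrial genes was not in this fit. The call of Ryr3 held in 3 of 15 fits that left out 1 mouse, with changes from -1.71 to -1.49, and that of Sln in 15 of 15, from -6.20 to -5.36. No single mouse stood far enough from its group to be flagged in any of the 30 combinations of a member with a group of 4 mice, where chance flags about 1 in 20. The group of 3 D+Q-treated hearts was left out of that check. In it, Atp2a1 had 31.5 TPM in replicate 2 against 0.178 and 0.434 TPM in the others.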

How the results depend on the processing

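In TA, the count of members called was 0 in each direction under each of the alternatives run, but the direction of small changes was not fixed. Median-of-ratios scaling gave log2 fold changes of 0.044 for Ryr1 and 0.057 for Atp2a1. Labelled sex in place of the surrogate variable, or labelled males only, gave -0.037 for Casq1, 0.38 for Casq2, -0.10 for Jph2 and 0.22 for Sln. Leaving out 1 mouse at a time gave -0.18 to 0.029 for Ryr1, -0.11 to 0.078 for Casq1, -0.88 to 0.23 for Casq2, -0.041 to 0.19 for Jph1, -0.22 to 0.15 for Jph2 and -0.79 to 0.24 for Sln. In heart, the member called lower, Ryr3, was lost (0 members called) with no filter on low TPM, no covariate, the atrial genes in place of sex or labelled females only. The count was 0 to 1 without 1 mouse, with changes of -1.61 to -1.38. With the atrial genes in place of sex, Ryr3 had 0.21 and Casq1 -0.51. Without 1 mouse Atp2a1 ran from -0.72 to 2.06 and Sln from -5.98 to -5.18. In the interaction, the count of members called lower was 0 with a pseudocount of 0.1 or no filter, and 0 to 1 without 1 mouse. The causes were not tested. Between vehicle-treated tissues, no filter left Jph2 at an adjusted p of 0.0540 from limma, median-of-ratios scaling at -0.43, and left-out mice at -0.79 to -0.49.

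The ratios between tissues kept their direction under each alternative run, though the size of Ryr1 to Ryr2 moved with the pseudocount. Their p stayed at the smallest possible with other pseudocounts and scaling, and was not computed for left-out mice or the block. Between treatments, left-out mice gave -0.23 to 0.0071 for Ryr1 to Ryr2 in TA, -0.027 to 0.17 for Jph1 to Jph2 in TA, -0.042 to 0.32 for Ryr1 to Ryr2 in heart, -1.08 to 1.71 for Atp2a1 to Atp2a2 in heart, -0.093 to 0.12 for Casq1 to Casq2 in heart and -0.062 to 0.026 for Pln to Atp2a2 in heart.

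Replicate numbers name different mice, and samples with the same number did not deviate together. With the replicate number as a replicate block in place of sex, 0 members were called lower in heart, where Ryr3 was at -1.43 (limma adjusted p = 0.142) and Sln at -5.31 (limma adjusted p = 0.0681). The block changed no call of a member in TA or between the tissues. It was not run for the interaction. The unknown depth limits genes near 0.5 TPM, such as Ryr3, most.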
